A study of Homo sapiens with 6 samples.

Results

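Ribosome biogenesis is described here through 34 listed genes, chosen by name with earlier results of these data known, in a human myeloma cell line with and without a short hairpin RNA (shRNA) against CKS1B. The 34 genes comprise 8 small-subunit factors, 10 large-subunit factors, 8 genes of small nucleolar ribonucleoproteins (snoRNPs), 3 subunits of RNA polymerase I and 5 further nucleolar proteins. Of these, 28 had a probe set annotated to a single gene and all 28 passed the filter on low values, among 12663 genes tested of 19777 named on the array. RNA came from JJN3, an established myeloma line, on 6 Affymetrix U133 Plus 2.0 arrays, 3 from cells given a scrambled shRNA with no specific target and 3 from cells given the CKS1B shRNA. These are called control and knockdown arrays from here on. Both hairpins came in a viral vector, so the control cells also carried a vector and a hairpin. The labels give no hairpin sequence, time after transduction, or word on whether the cells were a pool or a clone. Titles letter the arrays of either group from A to C, and that of control array B has a further word of unstated meaning. Whether arrays of 1 group stem from different cultures is unstated, so the p-values cover the spread between arrays only, which may be technical.

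CKS1B binds cyclin-dependent kinases and helps the SKP2 ubiquitin ligase to mark the kinase inhibitor CDKN1B for breakdown. Ribosomes are built in the nucleolus, where RNA polymerase I copies the ribosomal DNA into a long precursor RNA. SnoRNPs guide chemical changes to this RNA, and the assembly factors cut and fold it with ribosomal proteins into a small and a large subunit. Many of these genes are known targets of MYC, and plasma cells and myeloma cells, which secrete large amounts of protein, make many ribosomes.

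MYC with its partner MAX, and several related factors, bind the E-box CACGTG, and the promoters of the listed genes were searched for it. RefSeq promoter windows of GRCh38.p14, from 250 bases before to 50 after a gene's start, were at hand for 28 of the 34 genes. BOP1, NOLC1, NOP58, RRP12, RRP1B and RRS1 were not matched. The E-box reads the same on both strands and stood in 16 of the 28 genes (57.1%), in at least 1 window of the gene. It stood in 12.4% of the 10236 tested genes with a window, in 25.2% of 127 other ribosome biogenesis genes, in 6.35% of 63 ribosomal protein genes and in 7.26% of all 35116 windows. By role it was found in 6 of 7 small-subunit factors, 4 of 7 large-subunit factors, 3 of 6 snoRNP genes, 3 of 5 nucleolar proteins and 0 of 3 polymerase I genes. Of the 18 E-boxes, 15 began within 50 bases of the start and 11 lay after it. The matches are descriptions of letters in these windows, and binding was not measured. Below are 6 of them, printed 5′ to 3′ on the gene's strand with the E-box in capitals. FBL, NOP10, GAR1 and RRP9 are shown because knockdown arrays A and C both read above the control arrays for them, and MYBBP1A and NOP14 because they had the lowest group differences among the genes with an E-box.
FBL: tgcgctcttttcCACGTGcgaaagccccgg
NOP10: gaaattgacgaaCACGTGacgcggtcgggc
GAR1: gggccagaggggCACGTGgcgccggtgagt
RRP9: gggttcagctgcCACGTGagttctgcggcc
MYBBP1A: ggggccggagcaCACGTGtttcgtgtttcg
NOP14: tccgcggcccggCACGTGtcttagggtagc

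In GRCh38.p14 the printed stretch of FBL is chr19:39846356-39846385 on the minus strand, and its E-box begins at base 7 of the transcribed part. That of NOP10 is chr15:34343130-34343159 on the minus strand, with the E-box from position -11 before the start, and a further NOP10 E-box lay farther upstream. That of GAR1 is chr4:109815781-109815810 on the plus strand, with the E-box from base 32. RRP9 lies at chr3:51941892-51941921 on the minus strand, with the E-box from position -5. MYBBP1A lies at chr17:4555340-4555369 and NOP14 at chr4:2963374-2963403, both on the minus strand, with E-boxes from bases 28 and 16. Other motifs were counted on both strands, and none of the searched motifs contains another. The ETS core CCGGAAG stood in 10 of the 28 genes (35.7%, against 21.4% of tested genes), and the NRF1 core GCGCATG in 3 (10.7%, against 8.45%). The 14 tested genes with an E-box and the 9 with a window but none had median log2 differences, knockdown minus control, of -0.60 and -0.63 over 6 arrays. Both medians turned without knockdown array B, to 0.080 and 0.11.

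Values are MAS5 intensities on a linear scale, and differences are knockdown minus control, taken on log2(value + 16), a scale on which dim genes appear to change less than they do. The arrays were not alike. Knockdown array B correlated with the others at 0.577 to 0.610 (Pearson's r over probe sets, which are not independent), while the other 5 reached 0.879 to 0.958 among themselves. Its median value was 334, against 117.5 to 201.6 on the others, and its actin 3′/5′ ratio, a measure of RNA breakdown or of labelling biased to the 3′ end, stood at 12.4. On knockdown array C that ratio was 2.93, and on the other 4 arrays 1.05 to 1.66. The same ratio for GAPDH was 4.70 on knockdown array B and 0.98 to 1.18 elsewhere. The median value of the 28 genes was 1117 on knockdown array B and 2874 to 4020 on the others, and the counts and medians of the gene groups are therefore given with and without this array. CKS1B itself read 8266, 8441 and 7294 on control arrays A to C and 481, 269 and 828 on the knockdown arrays. Its log2 difference was -4.02 (SE 0.44, limma adjusted p = 0.246, two-sided exact permutation p = 0.1, the smallest that 3 arrays against 3 allow). Without knockdown array B it was -3.63 (adjusted p = 0.00126 in limma). Plasma cell markers were present, with 8 of 9 above the filter, and their summed value was 38644 to 44018 with the scrambled shRNA and 38578 to 46791 with the CKS1B shRNA. Within that sum the markers moved apart on knockdown array B. There POU2AF1 read 30311 (11471 to 17267 on the other arrays), and SDC1, PRDM1 and CD38 were also at their highest. So was SLAMF7, which was under the filter. TNFRSF17 read 408.5 there (4476 to 8733 on the others), and XBP1, IRF4 and MZB1 were also at their lowest. Summed T and NK cell markers (3 of 6 above the filter) read 343 to 1308 and 478 to 4691, and myeloid markers (4 named, 0 above the filter) 254 to 382 and 191 to 2007, the highest in each case on knockdown array B. Summed B cell markers (4 named, 2 above the filter) read 5821 to 8202 and 5230 to 8316, erythroid markers (2 named, 1 above) 328 to 679.8 and 289 to 799, and stromal markers (6 named, 4 above) 1758 to 2542 and 1384 to 2198. No named marker was at 0 on any array. Their part in the results was not tested.

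Taken over the 6 arrays, 23 of the 28 genes read lower and 5 higher with the CKS1B shRNA, and none passed the test. Of all genes tested, 55.7% read lower. At a limma adjusted p of 0.05, 0 of 28 genes were lower and 0 higher (0% of all genes tested in each direction), and the smallest adjusted p among them was 0.933. At an unadjusted p under 0.05 there were also 0 and 0, against 222 lower (1.75%) and 151 higher (1.19%) of all genes. The median log2 difference of the 28 genes was -0.63, and that of all genes tested was -0.078. In bulk RNA, fewer cells with a transcript and less of it per cell cannot be told apart, and a value scaled to the array's mean is a share of the array's signal.

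Most of that difference lay on knockdown array B. There 23 of the 28 genes read below all 3 control arrays (41.9% of all genes did), RRP12, POLR1A, NPM1 and PNO1 read above all 3 (39.4%), and LYAR lay within. On knockdown array A, 8 genes lay below (29.4% of all genes), 10 above (24.9%) and 10 within. On knockdown array C, 7 lay below (30.9%), 13 above (30.3%) and 8 within. Relative to all genes, the median gene of the list lay 0.065, -1.80 and 0.17 log2 units from the control mean on knockdown arrays A to C. Control arrays A to C, each set against the other 2 control arrays, lay at 0.18, -0.013 and -0.054. Without knockdown array B, the 28 genes divided into 12 lower and 16 higher, and their median was 0.046 against -0.036 for all genes.

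**Figure D1:**
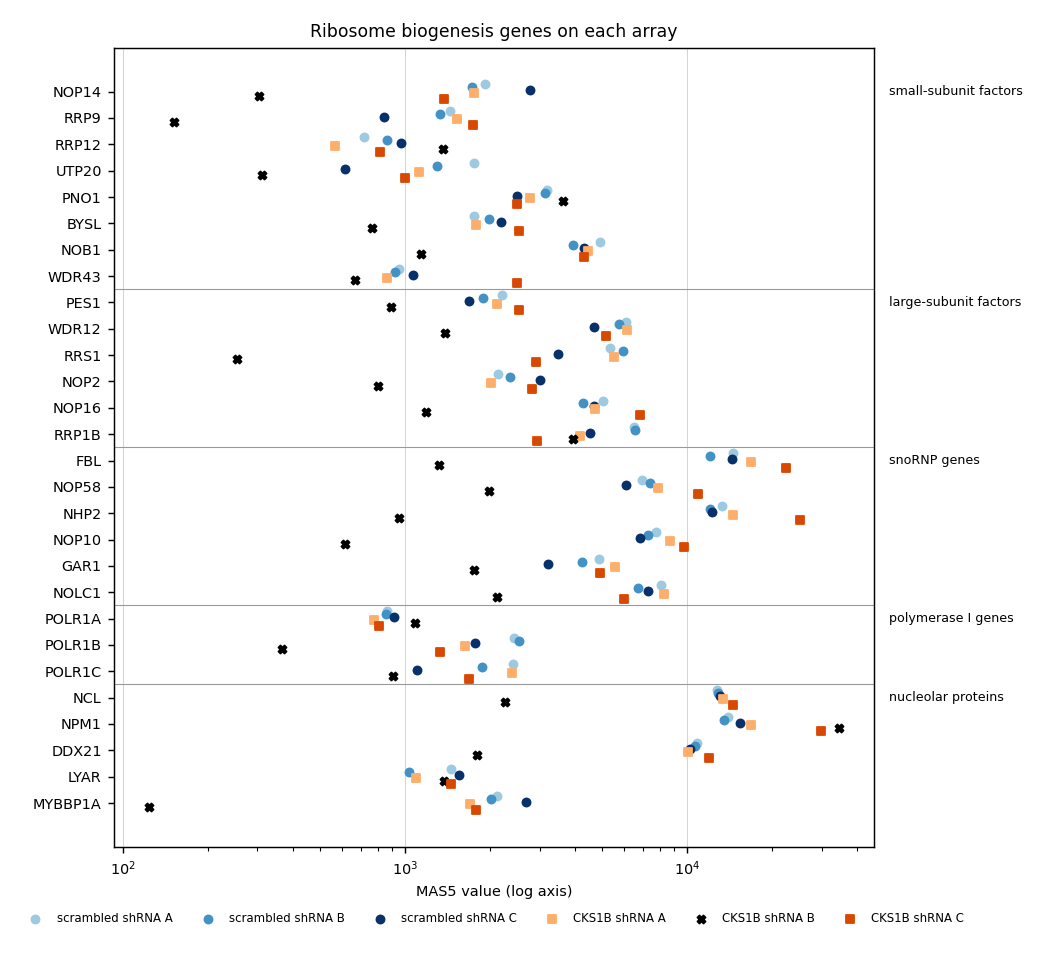
MAS5 values (log axis) of the 28 genes on each of the 6 arrays, with the 3 control (scrambled) and 3 knockdown (CKS1B shRNA) arrays by symbol and colour. The symbol of knockdown array B lies far left of the rest for most genes, such as RRS1 at 253 and MYBBP1A at 124, and right of the rest for NPM1 at 34583.

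**Figure D2:**
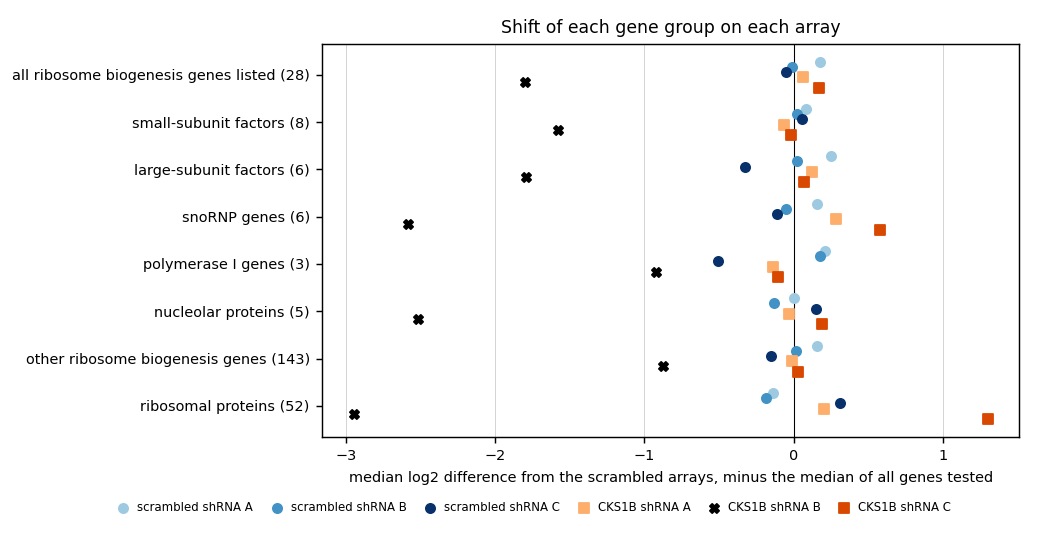
Median log2 difference from the control arrays minus that of all genes tested, for each gene group (number of genes in brackets) and array. Knockdown array B is lowest in every group, from -0.87 for the other ribosome biogenesis genes to -2.94 for ribosomal proteins, while the other 5 arrays lie between -0.50 and 0.58, except for ribosomal proteins on knockdown array C at 1.30.

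The small-subunit factors process the RNA and proteins of the 40S subunit, and all 8 were measured, 5 of them lower and 3 higher (median -0.51, and -0.037 without knockdown array B). NOP14, a nucleolar protein of the early 90S particle, read 1926, 1724 and 2767 on control arrays A to C, against 1759, 305 and 1370.3 on knockdown arrays A to C. Array B was the lowest of the knockdown arrays by far, and array A overlapped the control range by reading above control array B. The means were 2139 ± 553 and 1145 ± 753 (SD, n = 3 each), a log2 difference of -1.19 (SE 0.64, limma adjusted p = 0.933), which without knockdown array B was -0.43. RRP9, a protein of the U3 snoRNP that directs early cuts in the precursor, read 1446.5, 1328 and 846 on the control arrays and 1526.5, 151 and 1738 on the knockdown arrays. Knockdown arrays A and C lay above all control arrays and array B below them all. Its log2 difference was -0.63 (SE 0.85, limma adjusted p = 0.933) with 6 arrays and 0.46 (SE 0.28, adjusted p = 0.600) without array B.

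UTP20, a large scaffold protein of the same particle, read 1752, 1295 and 613 with the scrambled shRNA and 1126, 313 and 998 with the CKS1B shRNA. The control arrays alone spanned a wide range here, array C being the lowest, and knockdown arrays A and C lay inside it. NOB1, the nuclease that makes the last cut at the end of 18S rRNA, read 4920.2, 3948 and 4318 with the scrambled shRNA and 4453, 1145 and 4321 with the CKS1B shRNA. PNO1, its partner on the late 40S particle, read 3182, 3142 and 2489 on the control arrays and 2777, 3631 and 2501 on the knockdown arrays. NOB1 and PNO1 went opposite ways on knockdown array B, and on arrays A and C both lay within the control range. Their log2 differences were -0.64 and 0.0064 with 6 arrays and 0.0028 and -0.15 without array B. BYSL (bystin), a factor of 40S precursor particles, read 1752, 1979.5 and 2199.7 with the scrambled shRNA and 1787, 764 and 2527 with the CKS1B shRNA, with array C the highest of all 6 and array B the lowest. WDR43, of an early complex that joins transcription to processing, read 957, 922.5 and 1067 on the control arrays and 864, 663 and 2504 on the knockdown arrays. Its mean was higher with the CKS1B shRNA through array C alone, since arrays A and B lay below all control arrays. RRP12, a factor in export of both subunits, read 714, 867 and 968 with the scrambled shRNA and 564, 1363 and 817 with the CKS1B shRNA, high on array B and low on array A. Its other probe sets above the filter were dimmer. The brightest of them read 489.5, 232 and 227 on the knockdown arrays, inside its control range of 91 to 754. The next read 169, 259 and 204, above its control range of 113.5 to 130. The dimmest read 163, 290 and 173, above its control range of 68.5 to 168 on arrays B and C only.

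The large-subunit factors shape the 60S subunit, and all 6 that were measured were lower (median -0.60), but 3 were lower and 3 higher without knockdown array B (median -0.0063). BOP1, which joins PES1 and WDR12 in the PeBoW complex, is covered by 2 probe sets annotated to a miRNA gene as well, and PPAN by 1 annotated to its read-through with P2RY11. GNL3 and EBNA1BP2 were not matched to a probe set, and no value is given for these 4 genes. RRP1B, a nucleolar protein of 60S maturation, read 6472, 6558 and 4538 on control arrays A to C, and 4178.5, 3953 and 2945 on the knockdown arrays. All 3 knockdown arrays lay below all 3 control arrays, and array C, not array B, was the lowest. The means were 5856 ± 1142 and 3692 ± 657 (SD, n = 3 each), a log2 difference of -0.66 (SE 0.39, limma adjusted p = 0.933), and -0.72 (SE 0.25, adjusted p = 0.485) without array B. The other RRP1B probe set read 713, 493 and 469 with the scrambled shRNA and 343.5, 32.1 and 659.8 with the CKS1B shRNA, so it lay inside the control range on array C.

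RRS1, which brings the 5S RNA particle into the large subunit, read 5346, 5946 and 3489 on the control arrays and 5521, 253 and 2921 on the knockdown arrays. Array A lay within the control range, array C just below it and array B far below. Its log2 difference was -1.56 (SE 1.01, limma adjusted p = 0.933), and -0.26 without array B. PES1 read 2213, 1886 and 1689.8 with the scrambled shRNA and 2123, 890 and 2528 with the CKS1B shRNA, and its PeBoW partner WDR12 read 6100.2, 5755 and 4688 on the control arrays and 6143, 1385 and 5175 on the knockdown arrays. Both were low on array B only, and their log2 differences without it were 0.27 and 0.041. NOP2, a methyltransferase of 28S rRNA, read 2143, 2360.5 and 3011 with the scrambled shRNA and 2016, 806 and 2828 with the CKS1B shRNA. NOP16, a nucleolar protein of the 60S precursor, read 5030.5, 4276 and 4672 on the control arrays and 4729, 1185 and 6818 on the knockdown arrays. Knockdown array C was the highest of the 6 arrays for PES1 and NOP16 and lay within the control range for NOP2 and WDR12. Knockdown array A lay just below the control arrays for NOP2 and just above them for WDR12.

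Among the 5 roles, the snoRNP genes had the widest gap between the median on knockdown array B and those on arrays A and C. All 6 measured genes were lower with 6 arrays (median -0.71), and 5 of 6 were higher without array B (median 0.41). In each of those 5, arrays A and C lay above all 3 control arrays, as they did in 13.6% of all genes tested. Relative to all genes the group lay 0.28, -2.58 and 0.58 log2 units from the control mean on knockdown arrays A to C. The control arrays, each set against the other control arrays, lay at -0.11 to 0.16. FBL (fibrillarin), the methyltransferase of C/D box snoRNPs, read 14574, 12064 and 14413 with the scrambled shRNA and 16841, 1318 and 22338 with the CKS1B shRNA. Array C was the highest of the 6 and array B by far the lowest. The means were 13684 ± 1405 and 13499 ± 10901 (SD, n = 3 each), and the log2 difference was -0.78 (SE 1.03, limma adjusted p = 0.933). Without array B it was 0.51 (SE 0.22, limma adjusted p = 0.514). NOP58, the core scaffold of the same particles, read 6915, 7363 and 6094.5 with the scrambled shRNA and 7906, 1987.5 and 10969 with the CKS1B shRNA. Its log2 difference was -0.28 with 6 arrays and 0.46 (SE 0.22, limma adjusted p = 0.543) without array B.

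Of the H/ACA box snoRNP proteins, which hold the pseudouridine synthase DKC1, NHP2 read 13258, 12080.5 and 12302 on the control arrays and 14519, 953 and 25196 on the knockdown arrays. NOP10 read 7758, 7298 and 6826 with the scrambled shRNA and 8709, 613 and 9792 with the CKS1B shRNA. Both were highest on knockdown array C, next highest on array A and lowest on array B. Their log2 differences of -0.83 (SE 1.12) and -0.95 (SE 0.995) became 0.61 (SE 0.26) and 0.34 (SE 0.20) without array B, with limma adjusted p of 0.511 and 0.586. GAR1, the remaining protein of that particle, read 4857, 4251 and 3221 on the control arrays and 5564, 1751 and 4915.5 on the knockdown arrays. Here array A was the highest, and control array C was lower than the other control arrays. NOLC1, a chaperone of snoRNPs, read 8058, 6701 and 7276 with the scrambled shRNA and 8275.5, 2120.4 and 5964 with the CKS1B shRNA, the only measured gene of the group with array C below the control arrays. DKC1 and NOP56 host other small RNAs in their introns, and their 3 and 2 probe sets were annotated to those genes too, so neither is given a value. The higher values on knockdown arrays A and C depended on the scaling. After quantile normalization of the 5 arrays, the group's median was 0.073. Only NOP10 of these genes then kept both arrays above all control arrays (12.7% of all genes).

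Polymerase I is represented by its largest subunits, POLR1A and POLR1B, and by POLR1C, which it shares with polymerase III. With 6 arrays POLR1B and POLR1C were lower and POLR1A lay at 0.0035 (group median -0.15, and -0.15 without knockdown array B). POLR1B read 2429, 2542 and 1772 on control arrays A to C, and 1635, 366 and 1335 on the knockdown arrays. All 3 knockdown arrays lay below all 3 control arrays, array B far below. The means were 2248 ± 416 and 1112 ± 663 (SD, n = 3 each), a log2 difference of -1.24 (SE 0.56, limma adjusted p = 0.933), and -0.58 (SE 0.25, adjusted p = 0.511) without array B. The other 3 POLR1B probe sets read 750.4, 2467 and 634 on array B, against control means of 845, 496 and 488, and none of them had separate groups. Through the brightest of its probe sets whose name has no suffix for shared sequence, the log2 difference of POLR1B was 0.80. POLR1A read 866, 855 and 916 on the control arrays and 775, 1089 and 809 on the knockdown arrays. It lay below the control arrays on A and C and above them on B, and its log2 difference without array B was -0.15. Its other probe sets above the filter were dimmer. The brighter of them read 489, 558.6 and 345.4 on the knockdown arrays, against a control range of 246.2 to 443.5. There arrays A and B lay above the control range and array C inside it. The dimmer read 323.4, 710.6 and 243.9. It lay below its control range of 330.3 to 425.4 on arrays A and C and above it on B. POLR1C read 2423.5, 1869 and 1104 with the scrambled shRNA and 2401, 905 and 1683 with the CKS1B shRNA, inside the control range on arrays A and C. A second POLR1C probe set read 2349.7, 2326 and 2154 on the control arrays and 2076, 195 and 1685 on the knockdown arrays, with all knockdown arrays below the control arrays.

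Among the nucleolar proteins, NPM1 was above all control arrays on all 3 knockdown arrays through the probe set used, and MYBBP1A was below them on all 3. The NPM1 probe set was the brightest of its 3 over 6 arrays through its value on knockdown array B, and over the other 5 arrays another was brighter, whose groups overlapped. With 6 arrays 4 of these 5 genes were lower and NPM1 higher (median -0.76, and 0.050 without knockdown array B). NPM1 (nucleophosmin), an abundant chaperone of the nucleolus, read 13948, 13502 and 15408 on the control arrays and 16884, 34583 and 29813 on the knockdown arrays, array B being the highest of the 6. The means were 14286 ± 997 and 27093 ± 9158 (SD, n = 3 each), a log2 difference of 0.86 (SE 0.58, limma adjusted p = 0.933), and 0.65 (SE 0.26, adjusted p = 0.504) without array B. The other 2 NPM1 probe sets read 4465 and 764 on array B, against control means of 19155 and 18541. On arrays A and C they read 21021 and 39825, and 21783 and 33301, and for the second of them both values lay above all control arrays. The first of them, the brightest over the 5 arrays, gave a log2 difference of 0.61 without array B. Averaged over its 3 probe sets, the log2 difference of NPM1 was -0.19 with 6 arrays. MYBBP1A, a nucleolar protein that binds the MYB transcription factor and takes part in rRNA processing, read 2126, 2016 and 2683 with the scrambled shRNA and 1697, 124 and 1792 with the CKS1B shRNA. Arrays A and C lay just below the lowest control array, and array B far below it. The means were 2275 ± 358 and 1204 ± 937 (SD, n = 3 each), a log2 difference of -1.59 (SE 0.92, limma adjusted p = 0.933), and -0.37 (SE 0.23, adjusted p = 0.604) without array B. Its second probe set had knockdown arrays A and C, at 699 and 719.7, inside the control range of 608 to 843.

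NCL (nucleolin), which binds the nascent precursor RNA, read 12807, 12867 and 13047 on the control arrays and 13369, 2261 and 14581 on the knockdown arrays. The control arrays lay close together, arrays A and C slightly above them and array B far below, with log2 differences of -0.76 (SE 0.76) and, without array B, 0.11 (SE 0.20). DDX21, an RNA helicase of the nucleolus, read 10883, 10628 and 10252 with the scrambled shRNA and 10060.5, 1800.3 and 11939.9 with the CKS1B shRNA, below the control arrays on A and above them on C. On array B its second probe set gave 46.3, its control mean being 9327. LYAR, a nucleolar zinc finger protein, read 1451, 1038 and 1552 on the control arrays and 1097, 1374 and 1462 on the knockdown arrays. Through the probe sets used, LYAR was the only gene within the control range on all 3 knockdown arrays. Its second probe set read 2052, 1606 and 1188 on the control arrays and 1131, 329 and 1298 on the knockdown arrays. There knockdown arrays A and B lay below the control range.

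Counted over the list, the groups did not overlap with 6 arrays for 3 genes that were lower, MYBBP1A, RRP1B and POLR1B (6.41% of all genes tested). They did not overlap for 1 gene that was higher, NPM1 (4.94%). Without knockdown array B, 4 genes were apart and lower, these 3 with POLR1A (14.4% of all genes). Apart and higher were 8 genes, FBL, NOP58, NHP2, NOP10, GAR1, RRP9, NCL and NPM1 (13.6%). With probe sets chosen over those 5 arrays, NPM1 left the higher genes, which were then 7 (13.7% of all genes), and POLR1C joined the lower ones, then 5 (14.6%). At an adjusted p of 0.05 in limma, 0 of the 28 passed without array B, where CKS1B, RDX and SLC39A10 were lower (0.0237% of all genes) and NCKAP1 and FTH1P5 higher (0.0158%), names chosen after their values were seen. At an unadjusted p under 0.05, RRP1B and POLR1B were lower there (all genes 4.54%) and FBL, NHP2 and NPM1 higher (all genes 4.95%). With quantile normalization of those 5 arrays, 6 genes were apart and lower, MYBBP1A, RRP1B, NCL, PNO1, POLR1B and DDX21 (14.2% of all genes). Apart and higher were 2, NOP10 and RRP9 (12.7%), so the direction of NCL turned with the scaling. After centring the 5 arrays on their medians, 0 genes were apart and lower (5.57% of all genes) and 7 higher (18.8%), the 8 above without GAR1. With the mean of probe sets on the 5 arrays, 3 were apart and lower (MYBBP1A, RRP1B and PNO1, 15.6% of all genes) and 7 higher (the 8 without NCL, 10.1%). That mean took in probe sets under the filter too. Quantile normalization of the 6 arrays left MYBBP1A and POLR1B apart and lower, added NCL and DDX21, and left out RRP1B and NPM1. That gave 4 lower (8.58% of all genes) and 0 higher (5.08%). After centring the 6 arrays on their medians, none of the 28 was apart (3.85% of all genes lower and 2.24% higher).

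**Figure D3:**
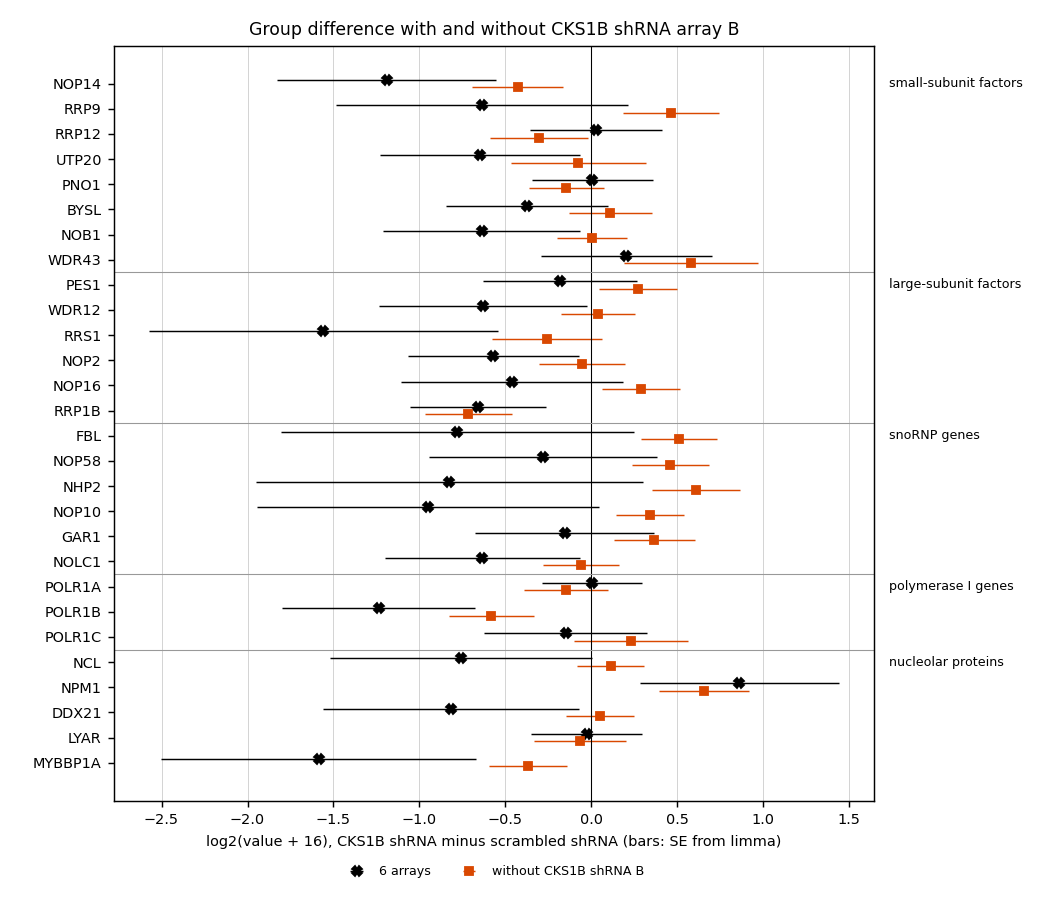
Log2 difference, knockdown (CKS1B shRNA) minus control (scrambled shRNA), with its SE from limma, for the 28 genes over 6 arrays (black crosses) and without knockdown array B (orange squares). The crosses lie left of 0 for 23 genes with SEs of up to 1.12, and the squares lie between -0.72 and 0.65 with SEs of up to 0.39.

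On knockdown array B the difference from the control mean fell with a gene's level on the control arrays. Genes tested were divided into 5 equal parts by their mean on the control arrays. The parts and the differences thus share the control mean, and a fall with level can arise from this alone. The SD of the log2 values was 1.61 on knockdown array B and 1.83 to 2.24 on the other arrays. How much of the fall comes from this construction was not tested. From the dimmest to the brightest part, the median log2 difference of all genes on knockdown array B was 1.23, 0.47, -0.058, -0.60 and -1.55. On knockdown arrays A and C it stayed between -0.24 and 0.13 in every part. The filter and the choice of probe set used means over all arrays, knockdown array B among them. Genes dim on the control arrays could thus pass the filter through a high value on array B. The part of this selection in the slope, above all in the positive medians of the dimmer parts, was not tested. Each control array was set against the mean of the other control arrays. Control array C also fell with level, from 0.61 in the dimmest to -0.19 in the brightest part. Control arrays A and B ran from -0.29 to 0.12 and from -0.21 to 0.063. The 28 genes were bright: 16 were in the brightest part, 9 in the next, 3 in the middle part and 0 in the lower parts. On array B their medians in those 3 parts were -1.94, -1.79 and 0.31, against -1.55, -0.60 and -0.058 for all genes.

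**Figure D4:**
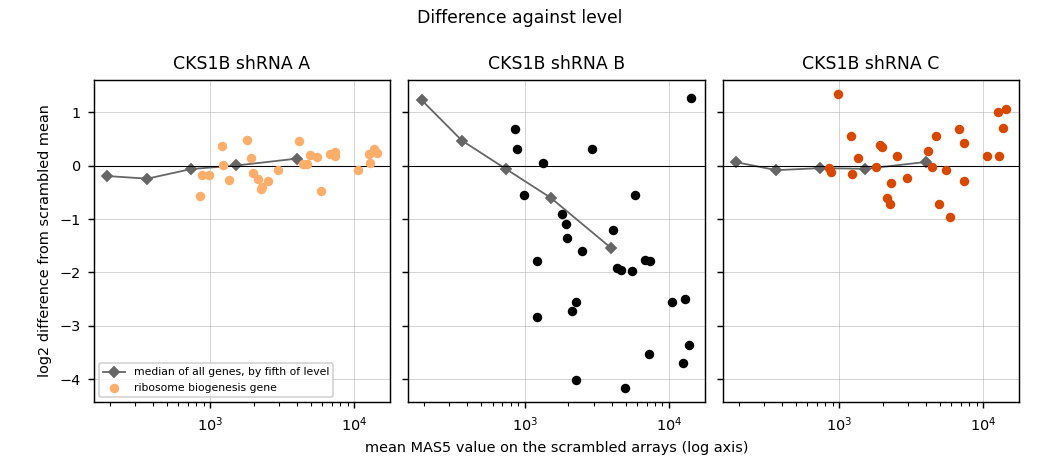
Log2 difference of each of the 28 genes from the control mean (coloured points) against its mean MAS5 value on the control arrays (log axis), 1 panel for each knockdown array, with the median of all genes in 5 parts by level (grey diamonds). On array B the grey line runs from 1.23 down to -1.55 and most coloured points lie on or below it, while on arrays A and C it stays between -0.24 and 0.13 and the points lie between -0.97 and 1.34. Array B also entered the filter and the choice of probe set, and both axes use the control mean. The part of these in its grey line was not tested.

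Probe sets of a single gene also parted on knockdown array B. For the 13 genes with several probe sets above the filter, the median range between a gene's probe sets was 2.53 log2 units on that array, and 0.38 and 0.54 on knockdown arrays A and C. On the control arrays it was 0.37 to 0.66, and over all 5744 such genes it was 1.68 on knockdown array B. NPM1, DDX21, PNO1 and POLR1B show it most. PNO1 read 3631 through the probe set used and 39.6 through another, whose control mean was 1820.3. Probe sets differ in where on the transcript they lie, which was not mapped here, and the part of the actin 3′/5′ ratio of 12.4 in these gaps was not tested.

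**Figure D5:**
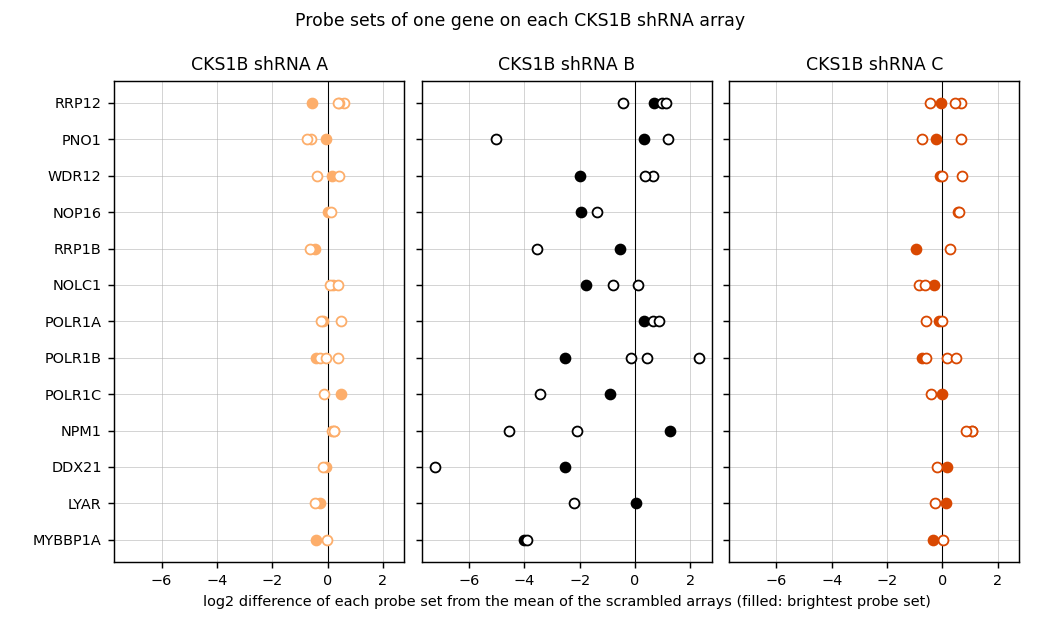
Log2 difference of every probe set above the filter from its own control mean, for the 13 genes with several, 1 panel for each knockdown array. Filled points are the brightest probe set, used for the gene, and open points the others. On array B the points of a gene spread widely, as for DDX21 at -2.55 and -7.23 and NPM1 at 1.28, -2.08 and -4.57.

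Other genes of the pathway also had their lowest median on knockdown array B, at -0.87 relative to all genes. Of 149 further ribosome biogenesis genes, 143 were tested, and 106 were lower and 37 higher with 6 arrays (median -0.38, with 55.7% of all genes lower). None passed the limma threshold in either direction (0% of all genes). Without knockdown array B, 79 were lower and 64 higher (median -0.024, with 53.5% of all genes lower). Large-subunit factors held 12 of the 19 genes, among the 143, whose groups did not overlap and were lower with 6 arrays (6.41% of all genes), and 3 of the list were apart and higher (4.94%). Of the 143, 23 were apart and lower without knockdown array B (14.4% of all genes) and 12 apart and higher (13.6%). SURF6, a nucleolar protein of rRNA processing, read 1081, 798 and 933 with the scrambled shRNA and 518, 147 and 445 with the CKS1B shRNA. BRIX1, a factor of 60S assembly, read 2697, 2665.5 and 2583 on the control arrays and 1774, 679 and 1156 on the knockdown arrays. NIP7, a factor of subunit maturation, read 2476, 2652 and 1507 with the scrambled shRNA and 1022, 604.5 and 1502.5 with the CKS1B shRNA. These 3 had the smallest p of the list on the lower side, and all 3 knockdown arrays lay below all 3 control arrays for each. Their log2 differences were -1.47 (SE 0.48), -1.23 (SE 0.41) and -1.12 (SE 0.43), each with a limma adjusted p of 0.933. Without array B they were -0.93, -0.88 and -0.79 (adjusted p = 0.460, 0.454 and 0.504).

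On the higher side NOL6, a small-subunit factor, POLR1H, a small subunit of polymerase I, and SENP3, a nucleolar SUMO protease, had log2 differences of 1.07, 0.80 and 0.62 with 6 arrays, and 0.92, 0.49 and 0.44 without knockdown array B. POLR1H read 4043, 3548 and 3759 on the control arrays and 4970.5, 10274 and 5641 on the knockdown arrays, all 3 knockdown arrays above the control ones, but averaged over its probe sets its log2 difference was -0.23. For NOL6 and SENP3 the groups overlapped on array A.

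Ribosomal proteins, which the pathway builds into subunits, read low on knockdown array B and high on knockdown array C. Of 52 tested, 35 were lower and 17 higher with 6 arrays (median -0.54, with 55.7% of all genes lower). Without knockdown array B, 0 were lower and 52 higher (median 0.72, with 53.5% of all genes lower). None passed the limma threshold. Relative to all genes they lay at 0.20, -2.94 and 1.30 on knockdown arrays A to C. Control array C, set against control arrays A and B, lay at 0.31. RPL11 read 18577, 17436.5 and 21349 with the scrambled shRNA and 21769.7, 196 and 30558 with the CKS1B shRNA. RPS24 read 17313, 17255 and 22934.5 on the control arrays and 20802, 139.9 and 47595.5 on the knockdown arrays. Both were far lower on array B than on any other. RPS3 read 22558, 23931 and 30069.9 with the scrambled shRNA and 28048, 459 and 61945.5 with the CKS1B shRNA. RPL38 read 19501, 18433.5 and 23177 on the control arrays and 24112, 40059.8 and 50456 on the knockdown arrays. RPL29 read 15957.5, 17174 and 21704 with the scrambled shRNA and 19270.5, 42420.1 and 51006 with the CKS1B shRNA. RPS28 read 18793.5, 19372 and 23878 on the control arrays and 23563, 45241 and 48995 on the knockdown arrays. These 3 were high on array B as well as on array C. After quantile normalization of the 5 arrays without knockdown array B, the median of the ribosomal proteins was -0.013, and the highest value on knockdown array C, 86238, stood beside 28261 to 65897 on the other arrays.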

How the data were processed

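RNA of JJN3 cells was measured on 6 Affymetrix U133 Plus 2.0 arrays, grouped by the hairpin that the labels name into control (scrambled) and knockdown (CKS1B shRNA) arrays. The authors deposited 1 linear intensity for each probe set of each array, computed with MAS5, per the submitters' processing notes. Its version is not given in the sources used here. Every array had a 2% trimmed mean of 500, so the width of its distribution was not equalised.

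Of 54675 probe sets, 62 were controls, 41091 were annotated to 1 gene, 1801 to several and 11721 to none. Genes were named through the platform annotation. Of the single-gene probe sets, 41037 had an Entrez identifier found in the RefSeq table of assembly GRCh38.p14 (54 did not). Values became log2(value + 16). Probe sets under the median mean log2 value (7.34, about 146) were left out, and the brightest single-gene probe set over the 6 arrays stood for each gene. The fit was limma's (version 3.58.1, R 4.3.3, eBayes with trend) over all genes, adjusted by the Benjamini-Hochberg method at 0.05, after the script was tested on simulated data. Fits without an array kept these probe sets, and the mean of probe sets, an alternative, took in those under the filter too. Promoter windows came from RefSeq. Figures used Python 3.11.15 and matplotlib 3.10.9.

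The listed genes, gene lists and alternatives were chosen with earlier results of these data known. Named with values were the 28 listed genes with a single-gene probe set, CKS1B, and the 3 other pathway genes and 3 ribosomal proteins of smallest p in each direction. The alternatives were pseudocounts of 1 and 64, other filters, centring, quantile normalization, other probe set rules, the title letter as a block, eBayes without the trend, and leaving out arrays. Those on 5 arrays, other than quantile normalization and the block, were added after the data were seen.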

Additional observations from a re-analysis of the deposited data

How the results depend on the processing

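Under the alternatives with 6 arrays, 0 of the 28 genes passed in limma, as under every alternative run, and the count of lower genes and the median of the list kept their direction except where knockdown array B was left out. Leaving out arrays, singly or by letter, gave 12 to 24 lower genes, a median of -0.90 to 0.065, a CKS1B difference of -4.47 to -3.59 and 0 to 5 genes of all genes past the threshold. Leaving out single arrays gave a snoRNP median of -1.18 to 0.41 and a nucleolar median of -1.23 to 0.050. Without knockdown array B, quantile normalization gave 15 lower genes, a negative median of the list, -3.68 for CKS1B and 2 genes called. The labels do not state pairs, so the letters served as a block only as an alternative. Deviations of same-lettered arrays from their group means had an r of 0.40 for A, -0.081 for B and -0.080 for C. Knockdown array B enters its group's mean, so these values cannot show or exclude pairing. The highest correlation between arrays, 0.958, was that of control array A with knockdown array A. The replicate block called 0 genes with 6 arrays. Without array B the replicate block gave 12 lower genes, a median of 0.065, -3.59 for CKS1B and 179 genes called, none of them listed. Through probe sets without a suffix the nucleolar median was -2.05, over the 2 of the 5 genes that had one, DDX21 and MYBBP1A.

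Signs turned as follows, and the cause was not tested. Centring on medians moved the median of all genes from -0.078 to -0.31 and the share lower from 55.7% to 71.7%, and turned RRP12 (-0.21), PNO1 (-0.23), WDR43 (-0.032) and POLR1A (-0.23). The mean of probe sets turned PNO1 (-0.58), NOP16 (0.42), NPM1 (-0.19) and POLR1H (-0.23). For NOP16 the turn came from probe sets under the filter, since those above it gave -0.46 and -0.22. Probe sets without a suffix turned PNO1 (-0.086), POLR1B (0.80) and RPS28 (-0.50), and quantile normalization LYAR (0.12). Leaving out single arrays gave RRP9 -1.23 to 0.46, RRP12 -0.31 to 0.32, PNO1 -0.15 to 0.12, BYSL -0.74 to 0.11, NOB1 -0.97 to 0.0028, WDR43 -0.37 to 0.58, PES1 -0.47 to 0.27, WDR12 -1.03 to 0.041, NOP16 -0.97 to 0.29, FBL -1.53 to 0.51, NOP58 -0.77 to 0.46, NHP2 -1.74 to 0.61, NOP10 -1.64 to 0.34, GAR1 -0.46 to 0.37, POLR1A -0.15 to 0.094, POLR1C -0.47 to 0.23, NCL -1.23 to 0.11, DDX21 -1.31 to 0.050, LYAR -0.20 to 0.094, RPL11 -3.15 to 0.44, RPS24 -3.40 to 0.73 and RPS3 -2.80 to 0.72.

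Without knockdown array B, quantile normalization turned UTP20 (0.0047), NOB1 (-0.14), WDR12 (-0.15), NCL (-0.28), DDX21 (-0.29) and the ribosomal protein median (-0.013), and gave a snoRNP median of 0.073. Centring moved the median of all genes from -0.036 to 0.16, turned UTP20 (0.12), PNO1 (0.051), NOP2 (0.14), NOLC1 (0.14), POLR1A (0.050) and LYAR (0.13), and gave a snoRNP median of 0.61. The mean of probe sets turned RRP12 (0.093), PES1 (-0.072), POLR1C (-0.025), NCL (-0.40) and DDX21 (-0.058), and choosing probe sets over the 5 arrays turned POLR1C (-0.28). With the mean, PES1 and NCL turned through a probe set under the filter. Leaving out control array C as well turned NOB1 (-0.0070), WDR12 (-0.071), NOP2 (0.086), POLR1C (-0.081) and LYAR (0.045). The number of arrays limits the precision.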
